A study of Mus musculus with 2148 samples.

Results

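Medullary thymic epithelial cells (mTEC) with high MHC class II on their surface (mTEChi) were compared between adult mice that lack Aire and adult wild-type (WT) mice. The rule took every cell whose title names an adult Aire-KO mTEChi or an adult WT mTEChi, which gave 958 of the 1980 cells of the series. Of these, 620 were WT cells from 9 experimental batches, called plates here (plates 1, 3, 4, 21 and 37 to 41), and the remainder were Aire-KO cells from 4 plates of 81, 86, 87 and 84 cells (plates 7, 8, 13 and 14). All mice were C57BL/6, the Aire-KO mice were Aire-deficient throughout the body, and the cells were sorted as DAPI-negative, CD45-negative, EpCAM-positive, Ly51-negative and MHC class II high. Each cell was read by RamDA-seq, which copies total RNA along its full length. The Aire-KO cells all came from males of 5 weeks. The WT cells came from males of 4 weeks (6 plates), females of 4 weeks (plate 21, 82 cells) and males of 5 and 6 weeks (plates 3 and 4, with 17 and 77 cells). The 94 cells of plates 3 and 4 were sequenced in 2 runs. No Aire-KO plate held WT cells, so genotype and plate cannot be told apart. The mice are not numbered, plates of 1 age and sex may share mice, and p-values over plates therefore measure the spread between plates, which may be technical.

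mTEC show developing T cells the body's own proteins, so that T cells that react to them can be removed or turned into regulatory T cells. Aire, made by a large share of mTEChi, is known for raising the transcription of very many genes that otherwise belong to single organs. Each such gene is read in a small share of mTEC at a time. Some mTEC also take on the features of other epithelial or specialised cells, such as tuft, microfold, ciliated or muscle cells, and are called mimetic cells. Fezf2 is a second regulator of self-antigens in mTEC, and Cd80 is a costimulatory ligand of mature mTEC.

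Counts were summed per plate and the 30902 genes with enough reads were tested. A gene was called at an adjusted p under 0.05 (edgeR quasi-likelihood test with Benjamini-Hochberg adjustment) and a fold of at least 2. Levels are given as CPM, reads per 1e+06 reads on genes in the plate, and fold changes as log2 of Aire-KO over WT with the standard error (SE). The plates held 53267982 to 93264622 reads in the Aire-KO and 12684139 to 84464595 reads in the WT, where plate 3 had only 17 cells.

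The targeted gene separated the groups. Aire stood at 25.5, 36.9, 26.01 and 17.02 CPM in Aire-KO plates 7, 8, 13 and 14, against a lowest, median and highest WT plate of 870, 1154 and 1790 CPM. The log2 fold change was -5.44 (SE 0.29, adjusted p = 1.05e-06, edgeR). The gene shares exon positions with Dnmt3l, and counting ignored strand. Every Aire-KO plate lay far below every WT plate, although reads on the gene remained in the Aire-KO, where 48.8% of cells held at least 5 of them (98.7% in the WT). Fezf2 was at 326.2, 373.1, 386.8 and 370.5 CPM in the Aire-KO and between 342.2 and 520 CPM in the WT plates (log2 fold change -0.06, SE 0.11). Cd80 was at 294.7, 230.96, 361.2 and 260.8 CPM in the Aire-KO and between 166.9 and 286.2 CPM in the WT (log2 fold change 0.31, SE 0.17). The groups overlapped for both genes and neither was called, so the cells of both genotypes carried the other 2 markers of mature mTEC.

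By edgeR more genes were lower than higher without Aire, and they fell further. Of 2278 genes called, 1662 were lower, which is 5.38% of those tested, and the remaining calls were higher, which is 1.99% of those tested. The median size of the change was 4.67 on the log2 scale (quartiles 2.68 and 6.97) for lower genes and 1.52 (1.24 and 2.06) for higher genes. More than 4-fold changes made up 84.5% of the lower genes and 26.6% of the higher genes. Of the lower genes, 11.7% had no read in any Aire-KO cell and 26.8% had at most 3. No higher gene was without reads in the WT. All 4 Aire-KO plates lay below all 9 WT plates for 1079 genes (3.49%) and above them for 713 (2.31%), and these included 43.5% of the lower and 60.7% of the higher calls. The median over all tested genes was -0.06. Single Aire-KO plates carried weight: without plate 7, 8, 13 or 14 there were 930, 801, 718 and 1027 lower genes, and 1.34%, 1.22%, 0.929% and 2.08% higher genes. Against the WT males of 4 weeks alone, 1622 genes were lower and 662 higher, and against the 2 plates of WT males of 5 and 6 weeks, 65 and 7, with fewer WT plates in the fit. The balance of directions turned under limma with a correlation estimated within mouse pools (plates of 1 genotype, age and sex), which gave 625 lower and 731 higher genes. The estimated correlation was only 0.027, and limma also models counts otherwise than edgeR. Which of these changed the calls here and below was not tested. With the plates of each pool summed, no gene was called in either direction by edgeR (1264 lower and 860 higher at an unadjusted p under 0.05). That fit set 1 Aire-KO pool against 4 WT pools and did not call even Aire (log2 fold change -5.66), so it cannot decide on single genes. Of 99 genes chosen for naming that edgeR called over plates, 49 were not called by limma, and 29 lost their call without some single plate.

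**Figure D1:**
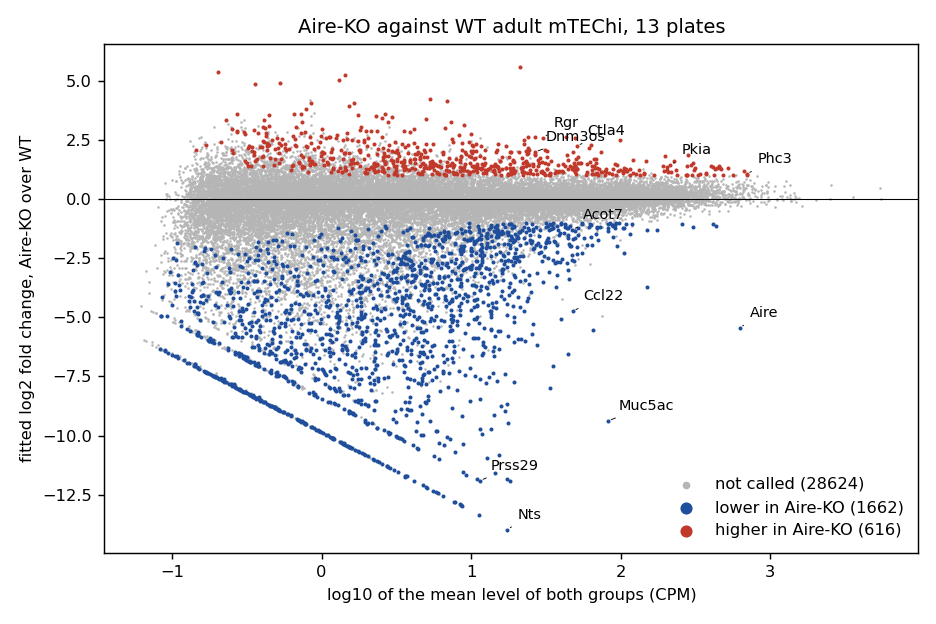
Fitted log2 fold change (Aire-KO over WT) of the 30902 tested genes against log10 of their mean level in CPM, with genes called lower in blue and called higher in red. The blue points reach below -12, while most red points lie just above 1; the straight blue edges at the lower left are genes with 0 or few reads in the Aire-KO plates, whose fitted values are not bounds.

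Genes were named here by the smallest adjusted p among lower protein-coding genes with at least 10 CPM in the WT and no overlap between plates. Those other than Aire encode mostly secreted or neuronal products. Prss29, a tryptase-like serine protease of the uterus (ENSMUSG00000034039, chr17:25318654-25322684, GRCm38), was at 0, 0.0188, 0 and 0 CPM in Aire-KO plates 7, 8, 13 and 14 and at 13.7, 19.7 and 50.7 CPM in the lowest, median and highest WT plate. That was 1 read in the Aire-KO against 11020 in the WT, a ratio of summed CPM of 6758 with an exact 95% counting interval from 1213 to 266961 (adjusted p = 6.27e-06, edgeR). No Aire-KO plate came near a WT plate. Calb2, the calcium-buffering protein calretinin of neurons, was at 0, 0.0188, 0.0107 and 0 CPM against 15.8, 30.4 and 92.4 CPM (2 reads against 16612, adjusted p = 1.02e-05). Th, tyrosine hydroxylase, the rate-limiting enzyme of catecholamine synthesis, had no read in the Aire-KO and 8.10, 12.6 and 21.003 CPM in the WT. Its summed level was at least 1265-fold higher in the WT, taking 3 reads over the group as the floor (adjusted p = 1.64e-05). At least 5 reads of these genes were found in 65 (Prss29), 55 (Calb2) and 35 (Th) of the 620 WT cells and in 0 Aire-KO cells, which allows a share of up to 0.888% of Aire-KO cells. Intervals and floors cover counting error only.

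The neuropeptide genes Tac2, which encodes neurokinin B, and Nts, which encodes neurotensin, fell with them. Tac2 was at 0.0546, 0.188, 0.0107 and 0.0182 CPM in the Aire-KO and at 18.1, 28.3 and 70.9 CPM in the WT (log2 fold change -8.96, SE 0.74, adjusted p = 3.66e-05). Nts had no read in the Aire-KO and 6.95, 38.9 and 62.5 CPM in the WT, at least 3566-fold higher (adjusted p = 0.000138). The groups did not overlap for either gene. Cytl1, a small secreted cytokine-like protein, fell by 9.72 on the log2 scale, Ly6g, a surface protein of neutrophils, had 3 reads against 13396, and Klk1b8, a glandular kallikrein, fell by 3.76. Klk1b8 and Ly6g belong to families of close copies, and poorly mapped reads were removed, so reads that fit several relatives may be missing or misplaced.

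Acot7 stood apart from the other 9 lower genes named by this rule. This acyl-CoA thioesterase was at 27.3, 26.9, 27.9 and 22.2 CPM in the Aire-KO and at 55.5, 68.7 and 84.8 CPM in the WT (log2 fold change -1.30, SE 0.13, adjusted p = 0.000151). The groups did not overlap, but the gene had at least 5 reads in 84.4% of WT cells and 64.5% of Aire-KO cells. It therefore fell less and was read in most cells of both genotypes.

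The 2 directions also differed in how many cells carried the genes. A gene called lower had at least 5 reads in a median of 5.16% of WT cells (quartiles 2.42% and 13.5%) and 0.592% of Aire-KO cells. A gene called higher had them in a median of 13.6% of WT cells and 30.9% of Aire-KO cells (quartiles 13.3% and 58.9%). Among lower genes 47.4% were found in under 5% of WT cells, and 35.5% of genes not called were. These shares describe genes chosen on the same cells and carry no test.

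Per cell, after each cell was thinned to 200000 reads, the median cell had a read on 7.16%, 6.80%, 6.32% and 6.74% of the 1662 lower genes in Aire-KO plates 7, 8, 13 and 14 and on 11.1% to 16.7% in the WT plates. A single WT cell had a read on 6.26% to 33.6% of them. Of the higher genes, the median cell had a read on 42.9%, 42.7%, 45.5% and 37.8% in the Aire-KO and on 25.97% to 30.3% in the WT. Counted over all genes, without regard to calls, the plate medians were 10729, 10716, 10445 and 10946.5 in the Aire-KO and 10417 to 11440 in the WT, and the ranges overlapped. The mean over plates was 10709 ± 205.4 (SD, n = 4) in the Aire-KO and 11067 ± 310 (SD, n = 9) in the WT, a difference of -358 genes (exact permutation test over plates, 2-sided, p = 0.0657, where the smallest possible is 0.0014). The difference was -413 for protein-coding genes alone (exact permutation p = 0.0406) and -42.5 when at least 5 reads per gene were asked for (exact permutation p = 0.676). It was -92.4 against the WT males of 5 and 6 weeks (exact permutation p = 0.8, where the smallest possible is 0.0667). Long noncoding genes alone went the other way, with 812.5 in the Aire-KO and 760 in the WT (difference 52.5, exact permutation p = 0.028).

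**Figure D2:**
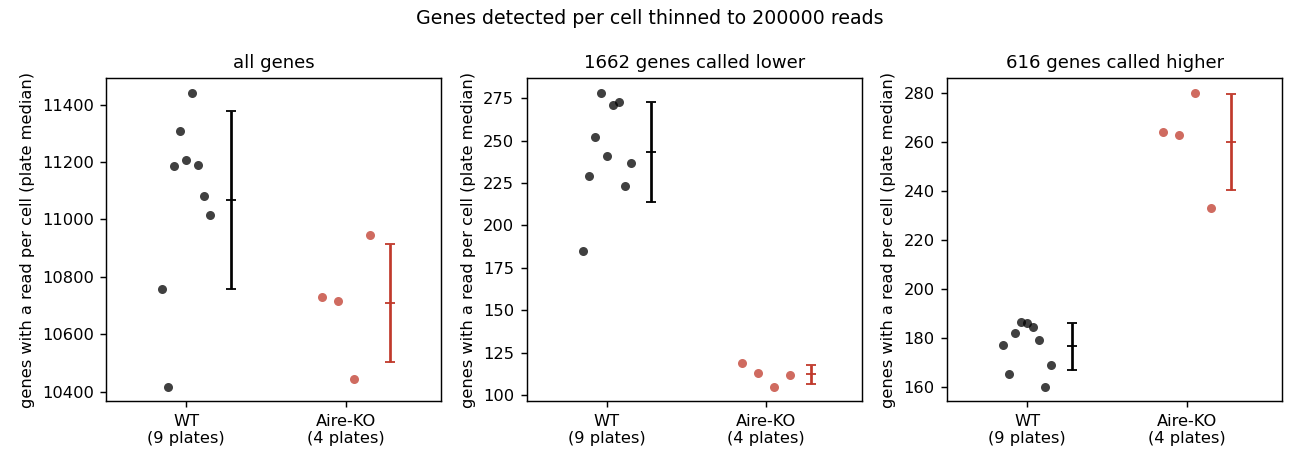
Genes with at least 1 read per cell at 200000 reads per cell (vertical axes, plate medians, each axis with its own range not starting at 0) in the 9 WT and 4 Aire-KO plates, for all genes, the genes called lower and the genes called higher; points are plates, and bars are the mean and SD. The groups overlap for all genes (10417 to 11440 in the WT), whereas for the called genes, which were chosen on these plates, they do not.

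By edgeR, lower calls were found in nearly every tissue list, and by limma in fewer lists. In 27 lists of genes typical of single tissues, 28.6% of the distinct genes with enough reads to be tested were called lower and 2 genes were called higher. The share of lower calls stands beside 5.38% of all tested genes and 6.81% of tested protein-coding genes. The median log2 fold change of the tested members was -2.61, against -0.06 over all tested genes, and was negative in all 27 lists. Only 200 of the tested members reached 1 CPM in any Aire-KO plate, so many members passed the filter on low counts only through the WT plates, and their counts and medians are a description. At least 1 member was lower in 25 lists, the exceptions being testis and placenta. Among the 25, epidermis (5.88% of tested members) and brain and myelin (6.67%) had shares near that of all tested protein-coding genes. Without Aire-KO plate 7, 8, 13 or 14, 66, 66, 59 and 65 members were lower. By limma with the estimated correlation 26 were lower, and against the WT males of 5 and 6 weeks 6. The fit over mouse pools, with 1 Aire-KO pool, did not call even Aire and cannot decide here.

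**Figure D3:**
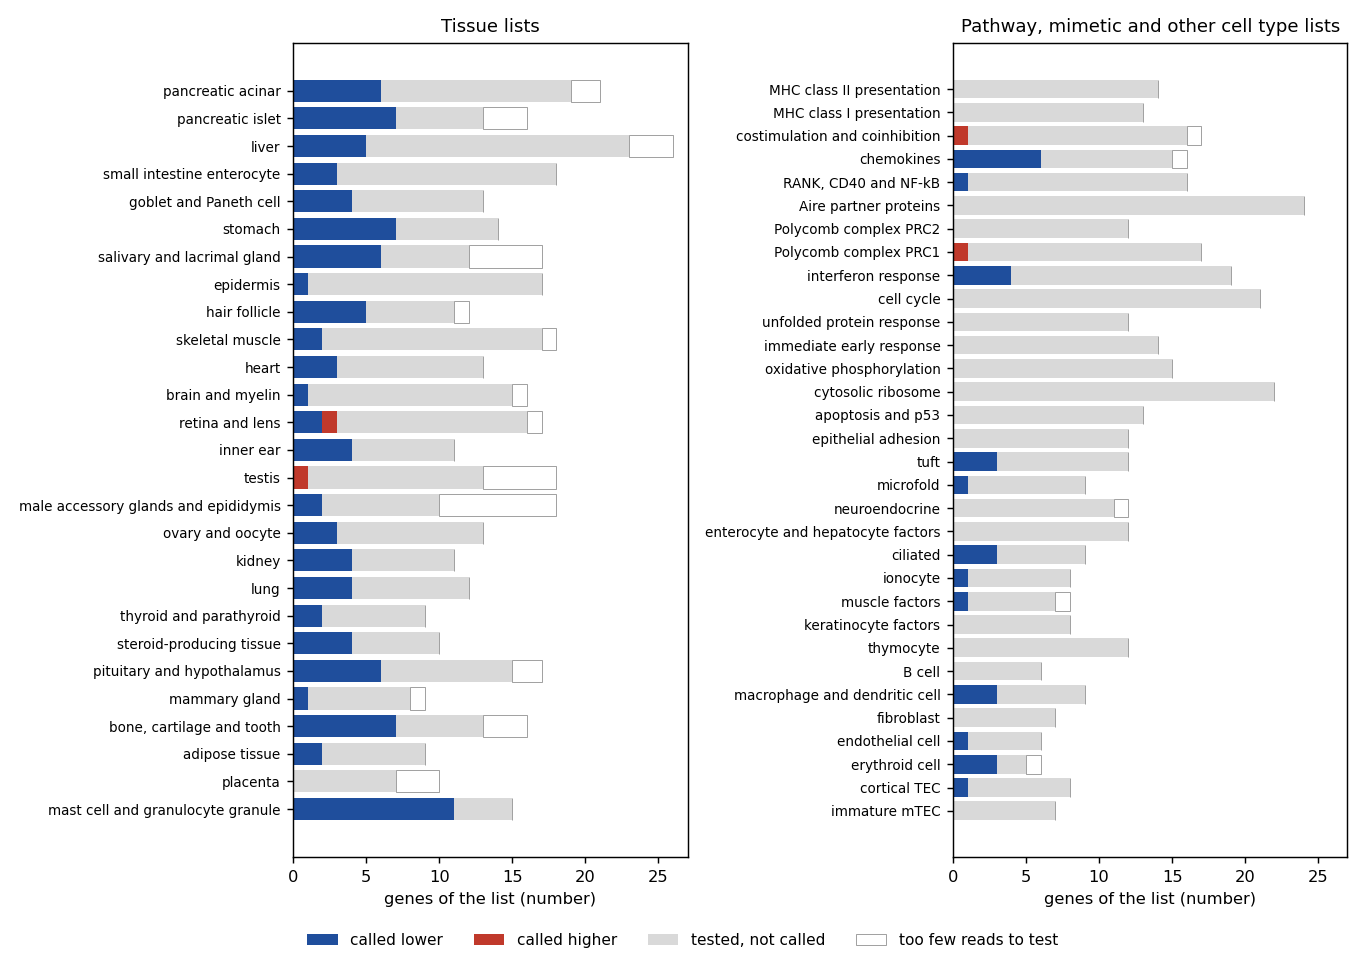
Number of genes (horizontal axes) of each list called lower (blue), called higher (red), tested but not called (grey) or with too few reads to test (white), for 27 tissue lists on the left and 32 pathway, mimetic and other cell type lists on the right. The list of mast cell and granulocyte granule genes has the most lower calls (11 of 15), and most pathway lists have none.

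Of the 19 tested genes of pancreatic acinar cells 6 were lower (median log2 fold change -3.63), of 13 islet genes 7 (median -3.40) and of 14 stomach genes 7 (median -2.78). Ctrb1, a chymotrypsinogen, was at 0, 0.244, 0 and 0.0729 CPM in the Aire-KO and at 1.10, 30.1 and 71.3 CPM in the WT. The gut hormone Pyy had no read in the Aire-KO and 0.315, 14.6 and 31.8 CPM in the WT. Among stomach genes Muc5ac, the gel-forming mucin of the gastric surface, was at 0.382, 0.207, 0.0751 and 0.255 CPM in the Aire-KO and at 6.46, 155.1 and 380 CPM in the WT (log2 fold change -9.38, SE 1.49, adjusted p = 0.00235). It had at least 5 reads in 26.1% of WT cells and 1.18% of Aire-KO cells. Pgc, a pepsinogen, fell by 6.02, and Gkn1, a gastrokine of the stomach lining, had no Aire-KO read. By limma with the estimated correlation, Ctrb1 (adjusted p = 0.0755), Pyy (0.0609), Muc5ac (0.186) and Gkn1 (0.0608) were not called.

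Ins2, one of the insulin genes, showed how unevenly a single antigen can be sampled. It had no read in the Aire-KO and 0, 6.53 and 104.6 CPM in the lowest, median and highest WT plate, so the groups overlapped at 0. It was called by edgeR (adjusted p = 0.0153), with 17.4% of WT cells holding at least 5 reads, but not by limma with the estimated correlation (adjusted p = 0.159). Plate 1 alone reached 104.6 CPM, and the next WT plate stood at 11.3 CPM.

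In the liver list 5 of 23 tested genes were lower, among them the fibrinogen chain genes Fgg and Fga with no Aire-KO read and Alb, the main protein of blood plasma, with 1 read. Crp, an acute-phase protein, was not among them. It was at 15.4, 14.4, 14.4 and 7.22 CPM in the Aire-KO and at 11.03, 14.98 and 27.2 CPM in the WT (log2 fold change -0.29, SE 0.28). The salivary and lacrimal list had 6 of 12 lower (median -3.87), the intestinal goblet and Paneth list 4 of 13, including the mucin Muc2 with 2 Aire-KO reads, and the enterocyte list 3 of 18. The calls of Alb and Fga were lost without any 1 of the 4 Aire-KO plates (highest adjusted p = 0.118 and 0.101), and by limma Alb, Fga, Fgg and Muc2 were not called (adjusted p = 0.405, 0.326, 0.116 and 0.278).

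Skin was examined in 2 lists. Of 11 tested hair genes 5 were lower, with a median of -6.25 (-5.68 with genes at 0 set to their bound), among them the keratins Krt73, Krt71 and Krt25. Of 17 epidermal genes (median -1.65, with 11 below 0) only Krt1 was called, a share of 5.88% beside 6.81% of tested protein-coding genes. Krt1 was at 5.82, 3.21, 2.18 and 0.128 CPM in the Aire-KO and 8.87, 20.5 and 54.2 CPM in the WT. The calls of Krt1 and Krt71 were lost without Aire-KO plate 13 or 8 (highest adjusted p over single plates 0.11 and 0.0852), and limma called neither of them, nor Krt73 (adjusted p = 0.0571, 0.203 and 0.219). The difference between the 2 lists was not tested. Lower calls were also made in the lists of inner ear (4 of 11), kidney (4 of 11), lung (4 of 12), steroid-producing tissue (4 of 10), pituitary and hypothalamus (6 of 15), and bone, cartilage and tooth (7 of 13). Otog, which encodes a protein of the membranes over the inner ear's sensory cells, was at 0.5682, 0.0375, 0.0107 and 0 CPM in the Aire-KO and at 3.49, 38.6 and 101.5 CPM in the WT. Sftpd, a surfactant protein of the lung, fell by 7.59, and Pomc, the precursor of pituitary hormones, fell by 3.54. The enamel gene Amtn had no Aire-KO read. Otog and Amtn were not called by limma (adjusted p = 0.101 and 0.0881). By limma no gene was lower in the lists of inner ear, kidney, steroid-producing tissue, and bone, cartilage and tooth. In the lung list and in the pituitary and hypothalamus list 2 each were lower. Without single Aire-KO plates, the kidney, lung and steroid-producing lists each kept as few as 1 lower gene.

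Among muscle, brain and germ cell lists, skeletal muscle had 2 of 17 tested genes lower (Chrna1 and Tnnt3), heart 3 of 13, brain and myelin 1 of 15, and ovary and oocyte 3 of 13 (Zp3, a coat protein of the egg, Nlrp5 and Oosp1). The share of the brain and myelin list, 6.67%, stands beside 6.81% of tested protein-coding genes. Gad1, the enzyme that makes the transmitter GABA, was the brain gene called, at 31.9, 25.7, 52.7 and 26.9 CPM in the Aire-KO and 44.3, 85.97 and 100 CPM in the WT, with overlap (log2 fold change -1.03, SE 0.26, adjusted p = 0.0268). No testis gene of 13 was lower, and Zpbp, a sperm protein, rose by 1.23. The milk casein gene Csn2 was not called. It was at 634, 567.5, 796 and 635 CPM in the Aire-KO and 513.1, 669 and 819 CPM in the WT (log2 fold change 0.05, SE 0.13). Another casein gene, Csn1s2a, fell by 7.47 with overlap between the groups. Single plates decided some of these calls. That of Gad1 was lost without any of Aire-KO plates 7, 8 and 14 or WT plates 4, 37 and 40 (highest adjusted p = 0.098), that of Tnnt3 without Aire-KO plate 7 or 14 (0.0769), and that of Csn1s2a without Aire-KO plate 8, 13 or 14 (0.0816).

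The list with the largest share of calls held granule proteins of mast cells and granulocytes, of which 11 of 15 were lower (median -5.55). They included the mast cell proteases Mcpt1, Mcpt2 and Mcpt4, with 1, 1 and 0 Aire-KO reads. These 3 genes were also at 0 in at least 1 WT plate, and limma called none of them (adjusted p = 0.284, 0.245 and 0.184). By limma 3 genes of the list were lower, and without single Aire-KO plates as few as 7. Defining genes of the blood and stromal cells that a sort could carry were measured beside them. The summed level of 9 macrophage and dendritic cell genes was 215.7 to 305.1 CPM in the Aire-KO and 206.8 to 572.4 CPM in the WT, and 3 of the 9 were lower, namely Csf1r, Adgre1 and Siglech. The ranges overlapped also for 12 thymocyte genes (29.3 to 77.7 against 37.5 to 107.3 CPM), 6 B cell genes (58.7 to 116.4 against 87.4 to 181.3), 7 fibroblast genes (95.9 to 343.02 against 86.6 to 362.8), 6 endothelial genes (13.4 to 55.4 against 7.10 to 109.004) and 6 erythroid genes (15.1 to 34.8 against 16.5 to 32.98). No thymocyte, B cell or fibroblast gene was called. In a further list of 8 genes of cortical thymic epithelial cells, Enpep alone was called, as lower (log2 fold change -3.83, adjusted p = 0.00317, edgeR). Limma also called Enpep (adjusted p = 0.0128). Plvap was the endothelial gene called, and 3 globin genes were called in the erythroid list, where Hbb-bs and Hbb-bt had no Aire-KO read. The calls of Csf1r, Adgre1 and Plvap were lost without Aire-KO plate 7, 13 or 14 and by limma (adjusted p = 0.0755, 0.252 and 0.126). Whether other cells had a part in the lower granule genes was not tested.

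Lower genes often lay side by side on the chromosomes. Of the 1244 protein-coding genes called lower, 37.7% had a lower gene next to them among the tested protein-coding genes, as did 10.6% of the protein-coding genes not called lower. With neighbours whose symbols do not start with the same 4 letters the share was 25.8%. The longest runs had 6 genes. One on chr17:25298394-25374442 held Prss34, Prss28, Prss29, Tpsab1, Tpsb2 and Tpsg1, which encode tryptases and related serine proteases. Others held the mast cell protease genes on chr14:55941451-56062313 (Cma1 to Mcpt4), the kallikrein genes on chr7:43841971-43980376 (Klk5 to Klk1b9), the Bpif genes on chr2:153900388-154138356, which encode secreted lipid-binding proteins, and Slurp and Ly6-family genes on chr15:74724318-74778859. These runs were picked out after their values were seen, and reads that fit several close copies within them may be missing or misplaced. Of the protein-coding genes called higher, 54 (25.4%) had a higher neighbour, as did 2.02% of those not called higher, and the longest such run was 4 olfactory receptor genes on chr2:87692881-87747581.

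The promoters of the 2 directions are shown because the lower genes differed from the rest in sequence, which the comparison did not use. RefSeq promoters (GRCm38.p6, 250 bases before the start to 50 after) were matched by symbol to 14043 of the 18260 tested protein-coding genes, 942 of them lower. Below are promoters from the 10 protein-coding genes named in each direction by adjusted p. They are the 2 of each direction with the smallest value, other than Aire, whose RefSeq start lay within 50 bases of the annotated gene start. Capitals mark each CG dinucleotide (CpG), the site of DNA methylation in mammals.
Prss29, chr17:25318404-25318703, plus strand: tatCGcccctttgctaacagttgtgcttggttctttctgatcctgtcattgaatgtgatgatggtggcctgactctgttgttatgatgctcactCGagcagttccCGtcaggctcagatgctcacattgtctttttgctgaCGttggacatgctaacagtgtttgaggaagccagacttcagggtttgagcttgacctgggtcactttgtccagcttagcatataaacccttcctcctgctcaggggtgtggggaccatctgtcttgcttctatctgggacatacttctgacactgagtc
Tac2, chr10:127724228-127724527, plus strand: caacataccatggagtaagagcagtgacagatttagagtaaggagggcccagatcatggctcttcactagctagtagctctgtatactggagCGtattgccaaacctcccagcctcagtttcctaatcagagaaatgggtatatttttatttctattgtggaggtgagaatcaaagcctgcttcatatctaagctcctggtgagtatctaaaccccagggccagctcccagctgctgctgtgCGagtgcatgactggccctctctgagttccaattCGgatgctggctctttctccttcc
Tmem131l, chr3:84040112-84040411, minus strand: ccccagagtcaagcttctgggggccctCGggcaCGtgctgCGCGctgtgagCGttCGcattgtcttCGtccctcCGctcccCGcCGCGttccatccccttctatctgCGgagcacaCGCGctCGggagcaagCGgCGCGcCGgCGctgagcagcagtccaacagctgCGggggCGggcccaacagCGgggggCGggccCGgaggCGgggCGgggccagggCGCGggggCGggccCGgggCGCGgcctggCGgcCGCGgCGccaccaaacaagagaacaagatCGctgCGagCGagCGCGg
Alg6, chr4:99715380-99715679, plus strand: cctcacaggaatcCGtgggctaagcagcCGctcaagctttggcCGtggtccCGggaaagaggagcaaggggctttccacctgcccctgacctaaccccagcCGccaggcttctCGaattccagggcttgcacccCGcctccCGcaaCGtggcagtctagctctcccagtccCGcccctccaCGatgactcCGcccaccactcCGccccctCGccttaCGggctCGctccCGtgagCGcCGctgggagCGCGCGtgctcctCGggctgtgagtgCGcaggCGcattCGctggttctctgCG
The Prss29 and Tac2 windows hold 4 and 3 CpG, and those of the higher genes Tmem131l and Alg6 hold 42 and 27. Over all matched genes the median was 5 CpG (quartiles 2 and 13.75) for lower genes, 11 (4 and 22) for higher genes and 18 (8 and 27) for genes not called. At most 5 CpG were found in 51.6% of lower, 33.8% of higher and 19.01% of other promoters. The letters TATAAA, searched on the strand of the gene from 45 to 16 bases before the start, were in 7.75% of lower promoters (73 genes), 3.25% of higher promoters (5 genes) and 2.08% of the others, and in 2.14% of all 32851 RefSeq promoters. A match is a description of the sequence and not of binding.

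All genes called higher had reads in the WT, and their median level over plates was 3.24 CPM in the WT and 9.47 CPM in the Aire-KO. The 10 protein-coding genes with the smallest adjusted p, among those with at least 10 CPM in the Aire-KO and no overlap between plates, were read in most cells of both genotypes. Pkia, an inhibitor of protein kinase A, was at 290, 283.2, 390 and 272.6 CPM in Aire-KO plates 7, 8, 13 and 14 and at 104.8, 123.9 and 137.9 CPM in the lowest, median and highest WT plate (log2 fold change 1.44, SE 0.11, adjusted p = 2.42e-05, edgeR). Calcrl, the receptor component for adrenomedullin and calcitonin gene-related peptide, was at 383.6, 402.1, 482.5 and 428.9 CPM against 171.9, 199.2 and 222.4 CPM (log2 fold change 1.21, SE 0.10). Rgs17, which shortens signalling by G proteins, was at 452.4, 374.95, 528.3 and 415.6 CPM against 117.4, 168.5 and 198.2 CPM (log2 fold change 1.51, SE 0.15). The groups did not overlap for any of the 3. Tmem131l, Jph1, which joins the surface membrane to internal calcium stores, Alg6, a glucosyltransferase of N-glycan synthesis, Ptpn14, a tyrosine phosphatase, Riok2, a kinase of ribosome maturation, Rgs20, another regulator of G protein signalling, and Naip2, a sensor of bacterial proteins, rose by 1.28 to 1.63. Reads of Jph1, Ptpn14, Riok2 and Rgs20 cannot be separated by strand from genes that share exon positions with them, and among genes named elsewhere the same holds for Trpm5, Avil, Fgg, Zpbp, Csf1r and Miat.

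**Figure D4:**
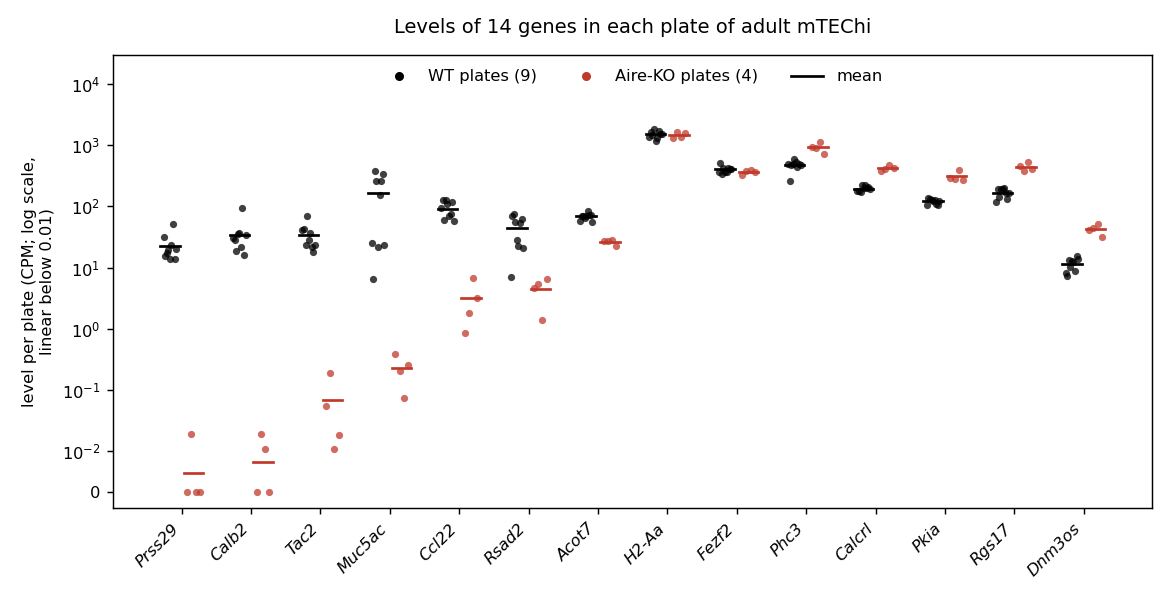
Level in CPM (vertical log axis, linear below 0.01) of 14 genes in each of the 9 WT plates (black) and 4 Aire-KO plates (red), with lines at the group means. The lower genes on the left are at or near 0 in the Aire-KO, Acot7 falls less far, H2-Aa and Fezf2 overlap, and the higher genes on the right are shifted upward in all 4 Aire-KO plates.

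Among higher genes noncoding transcripts were frequent. Protein-coding genes made up 74.8% of the lower and 34.6% of the higher calls, beside 59.1% of the genes tested. Long noncoding RNAs made up 12.8% of the lower and 31.01% of the higher calls, beside 17.8% of the genes tested, and loci that the annotation types only as TEC, still without experimental proof, made up 3.85% and 13.96%. Dnm3os, a long noncoding RNA that hosts microRNAs, was at 41.6, 44.1, 51.2 and 31.2 CPM in the Aire-KO and at 7.41, 12.3 and 15.7 CPM in the WT (log2 fold change 1.98, SE 0.21, adjusted p = 0.00025). AC122442.1, which shares exon positions with Nt5c2, rose by 1.46. On the lower side the long noncoding RNA Miat was at 0.131, 0.413, 0 and 0.0182 CPM in the Aire-KO and at 0.618, 20.4 and 61.1 CPM in the WT. Fendrr, made next to the lung and gut factor Foxf1, fell by 4.53, and H19, an imprinted fetal RNA, fell by 6.72. Limma did not call Miat (adjusted p = 0.216) or H19 (0.122). The protein-coding genes called higher were also long, with a median span of 44.6 kb (32.4% over 100 kb), against 17.05 kb (15.1%) for lower genes and 21.6 kb (12.9%) for those not called.

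Ctla4 and Rgr rose more than most. Ctla4, an inhibitory receptor known from T cells that binds Cd80, was at 81.4, 84.8, 122.1 and 43.99 CPM in the Aire-KO and 7.10, 15.2 and 45.3 CPM in the WT (log2 fold change 2.24, SE 0.42, adjusted p = 0.0062). Only plate 14 fell within the WT range. Rgr, a retinal opsin, was at 42.9, 71.8, 67.7 and 23.2 CPM against 1.96, 11.1 and 13.2 CPM (log2 fold change 2.59, SE 0.44), without overlap. Plate 14 also had the highest summed level of 7 genes of immature mTEC, 1751 CPM against 806 to 1078 in the other Aire-KO plates and 726 to 1168 in the WT. Without plate 14, 1027 genes were lower and 644 higher.

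No gene of antigen presentation was called. This holds for the 14 MHC class II genes (median log2 fold change 0.00, range -0.44 to 0.81) and the 13 MHC class I genes (median -0.10). H2-Aa, a chain of the class II molecule, was at 1292, 1631, 1378 and 1582 CPM in the Aire-KO and at 1171, 1524 and 1839 CPM in the WT (log2 fold change 0.05, SE 0.11). Over all 16 pathway lists 11 genes were lower (4.31% of those tested, beside 5.38% of all tested genes) and 2 higher, with a median of -0.06, equal to that over all tested genes. Of 16 genes of costimulation and coinhibition Ctla4 alone was called. None of 24 genes for partner proteins of Aire was called (range -0.39 to 0.50), nor any gene of the cell cycle, unfolded protein response, immediate early, ribosome, apoptosis or epithelial adhesion lists, all of which passed the filter. Cell cycle genes varied between plates within a genotype, with summed levels of 212.1, 450.4, 211.1 and 1046 CPM in Aire-KO plates 7, 8, 13 and 14.

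The pathway list with the most lower calls held chemokine genes. Of 15 tested, 6 were lower and none higher (median log2 fold change -2.08): Ccl22 and Ccl17, which attract cells that bear Ccr4, Ccl5, Cx3cl1, Cxcl9 and Xcl1, which attracts dendritic cells. Ccl22 was at 0.863, 1.84, 6.79 and 3.23 CPM in the Aire-KO and at 57.01, 94.7 and 125.6 CPM in the WT (log2 fold change -4.74, SE 0.54, adjusted p = 0.000308), with at least 5 reads in 33.1% of WT cells and 7.10% of Aire-KO cells. Ccl5 was at 8.49, 3.94, 12.8 and 4.34 CPM against 38.7, 77.3 and 127.2 CPM (log2 fold change -3.37, SE 0.40). Cx3cl1 was at 9.65, 9.65, 13.4 and 24.9 CPM against 55.5, 74.3 and 124.7 CPM (log2 fold change -2.39, SE 0.31). The groups did not overlap for any of these 3. By limma 4 chemokine genes were lower, and without single Aire-KO plates as few as 3.

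Interferon-response genes included 4 lower calls of 19 (median -0.82, with 16 of 19 below 0). Rsad2, an antiviral enzyme, was at 4.67, 5.33, 1.37 and 6.61 CPM in the Aire-KO and at 7.12, 53.95 and 76.3 CPM in the WT (log2 fold change -3.22, SE 0.63, adjusted p = 0.00763). Ifi44 and Isg15 fell by 1.86 and 1.66 with overlap between the groups, and Irf7, a transcription factor of the response, was the remaining call. Limma called none of the 4 (adjusted p = 0.0564 for Rsad2). The call of Ifi44 was lost without any 1 of the Aire-KO plates (highest adjusted p = 0.143), and that of Isg15 without Aire-KO plate 7, 13 or 14 (0.105). Among 16 genes of RANK, CD40 and NF-kB signalling only Tnfaip3, which encodes the NF-kB inhibitor A20, was called. It was at 68.6, 36.5, 39.1 and 65.9 CPM in the Aire-KO and 89.3, 124.7 and 174.6 CPM in the WT (log2 fold change -1.23, SE 0.21).

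Polycomb genes encode the complexes PRC1 and PRC2 that keep genes silent through histone marks. Phc3, a PRC1 subunit, was their only call, at 934, 905, 1121 and 715 CPM in the Aire-KO and 255.8, 484.6 and 598.99 CPM in the WT (log2 fold change 1.06, SE 0.17, adjusted p = 0.00266). Its fold was under 2 without Aire-KO plate 13 or WT plate 3 and against the WT males of 4 weeks (log2 fold change 0.97), and so it was not called there. The PRC2 cofactor Aebp2 had an adjusted p of 0.0112 but a log2 fold change of only 0.64. The summed level of 17 PRC1 genes was 1583 to 2055 CPM in the Aire-KO and 1137 to 1492 CPM in the WT, and that of 12 PRC2 genes was 1743 to 2095 against 1395 to 1655 CPM. Neither pair of ranges overlapped, but Phc3 made up a large part of the PRC1 sum, which was not taken without it. The median log2 fold change was 0.19 over the PRC1 genes and 0.13 over the PRC2 genes. The summed level of 15 oxidative phosphorylation genes lay the other way, at 1957 to 2423 CPM in the Aire-KO and 2440 to 2820 CPM in the WT. None of the 15 was called (range of log2 fold changes -0.53 to 0.08). Such sums were made for all pathway, mimetic and other cell type lists. Only these lists had no overlap, and the sums were not tested.

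Of 75 tested genes of mimetic mTEC, 9 were lower (12%, beside 5.38% of all tested genes and 6.81% of tested protein-coding genes) and none higher, with a median of -0.76. In the tuft list 3 of 12 were lower (Trpm5, Plcb2 and Avil) and all 12 fold changes were below 0. Trpm5, the ion channel of taste and tuft cells, was at 1.49, 3.04, 0.879 and 0.875 CPM in the Aire-KO and 3.82, 31.1 and 103.1 CPM in the WT. Pglyrp1 of the microfold list, which binds bacterial peptidoglycan, was at 20.9, 20.05, 26.6 and 23.3 CPM against 38.5, 84.8 and 118.9 CPM. Foxi1, the regulator of ionocytes, fell by 6.59, Mcidas, which starts the ciliated-cell programme, by 7.57, and Chrna1, the muscle acetylcholine receptor, by 2.61. Chrna1 was the only call among 7 tested muscle genes. Their median was -0.16, with 4 of the 7 below 0 and the highest at 3.52. The calls of Plcb2 and Mcidas were lost without Aire-KO plate 7, 8 or 13 (highest adjusted p = 0.124 and 0.0807), and limma called neither of them, nor Trpm5 (adjusted p = 0.239, 0.297 and 0.065). In the lists of neuroendocrine, enterocyte and hepatocyte, and keratinocyte genes none was called. Insm1 (neuroendocrine, log2 fold change 0.92, SE 0.18, adjusted p = 0.00716) and Trp63 (keratinocyte, 0.83, SE 0.17, adjusted p = 0.0099) passed the p but not the fold. These fold changes rest on single cells summed per plate, where fewer cells of a type and less RNA per cell cannot be told apart. Cells of each mimetic type were not counted.

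The levels in other sorts of the series put the changed genes in context. The 1662 lower genes held 0.46% to 0.641% of reads in the Aire-KO plates, 2.31% to 3.18% in the adult WT plates and 2.52% to 3.22% in 5 plates of newborn WT mTEChi. In mTEC with low MHC class II (mTEClo) they held 1.20% to 2.67% in 5 adult WT plates. In 2 Aire-KO mTEClo plates they held 1.29% and 1.32%. Among the WT mTEClo plates, 32, 33 and 34 stood at 1.22%, 1.20% and 1.28%, and plates 2 and 5 at 2.67% and 2.40%. Plate 5 came from mice of 5 weeks and plates 32, 33 and 34 from older mice, so the WT mTEClo range mixes ages. The plates from older WT mice were the ones near the Aire-KO mTEClo values, and plate 5 lay above both Aire-KO mTEClo plates. The effect of age on these shares was not tested. The genes called higher held 2.66% to 4.06% in the Aire-KO plates, 1.34% to 1.597% in adult WT, 1.20% to 1.52% in newborn WT mTEChi and under 1% in every adult mTEClo plate. The Aire-KO mTEChi thus had the lowest share of lower genes and the highest share of higher genes of these 5 groups, though the genes were chosen on 2 of them.

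**Figure D5:**
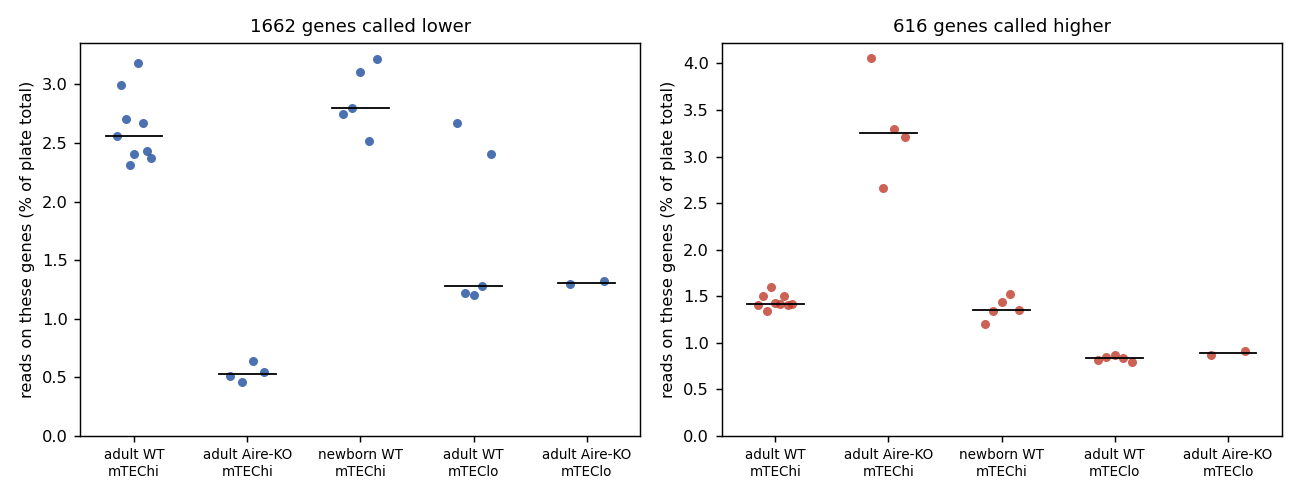
Share of a plate's reads on the 1662 genes called lower (left) and on the genes called higher (right), in percent, for the plates of 5 groups, with lines at the medians. Aire-KO mTEChi plates lie lowest on the left (0.46% to 0.641%) and highest on the right (2.66% to 4.06%).

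The named genes followed several patterns across these sorts. Nts and Tac2 were at 44.2 to 134.1 CPM and 24.6 to 52.1 CPM in newborn WT mTEChi, whereas Calb2 was at 0.111 to 15.97 CPM there. All 3 were under 3 CPM in every adult mTEClo plate. Ccl22 was at 51.7 to 195.8 CPM in newborn WT mTEChi and at most 3.79 CPM in adult mTEClo. Rsad2 and Cx3cl1 differed from it. In adult mTEClo, Rsad2 was at 26.4 to 68.3 CPM in the WT and 43.7 and 54.3 CPM in the Aire-KO, and Cx3cl1 at 32.5 to 134.9 and at 62.2 and 87.99 CPM, so that the Aire-KO lay within the WT range in that sort. Pkia was at 98.5 to 160 CPM in newborn WT mTEChi and Rgr at 5.12 to 16.98 CPM, both below every Aire-KO mTEChi plate. These are levels without a test, and the adult WT mTEClo ranges cover mice of different ages.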

How the data were processed

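Single mTEC of adult mice were read by RamDA-seq. Per the labels and methods, the authors trimmed reads (fastp 0.20.0), mapped them to mm10 with STAR 2.7.3a, removed poorly mapped reads and duplicates (SAMtools 1.9, Picard 2.21.1), and counted them per Ensembl gene with HTSeq 0.11.2 without strand. They kept cells above a minimum of reads and genes. The deposited whole-number counts were used as they stand, and the deposited normalized table was not. Names and positions came from GENCODE M21 (GRCm38), in which 48263 of 48437 genes were found.

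Counts were summed per plate within each genotype, and cells were not used as replicates. The test was edgeR 4.0.16 (R 4.3.3) with TMM scaling, its filter on low counts and the quasi-likelihood test, 2-sided, on 4 against 9 plates with 11 residual degrees of freedom. On simulated counts for this comparison (29984 genes), it called 78% of genes lowered 8-fold (log2 -3), 56% at log2 -2, 12% at log2 -1, 88% at log2 3, and 4 of 29784 unchanged genes. The changed genes, 50 per size, were drawn from those with a mean of at least 1 CPM, so their shares do not cover genes below that level. The simulated plates were independent draws without shared mice or batches, so these shares do not cover false calls that arise from mice or plates. Named genes were 9 preset genes, the 10 protein-coding genes and 3 long noncoding RNAs of each direction with the smallest adjusted p among those with at least 10 CPM and no overlap between plates, and up to 3 called members of each of 60 lists with at least 5 CPM, or the highest member where none was called. Predicted genes were passed over. Other called list members and genomic runs were named after their values were seen. The members and lists were chosen with earlier results of these data known. Depth was 207886 to 1721549 reads per cell. Alternatives were mouse pools, DESeq2 1.42.0, limma 3.58.1 with a correlation within pools, no filter, all mTEC plates, WT plates of 1 age range, thinned cells, and leaving out each of 13 plates.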

Additional observations from a re-analysis of the deposited data

Results flagged for a closer look

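Within a genotype, 65 sets of plate values were examined for a single plate far from the others, and 11 stood out. Chance alone gives about 1 in 20. Among WT plates, Ins2 was at 104.6 CPM in plate 1, with the next plate at 11.3. Fendrr (24.5 CPM) and Rgs20 (31.6 CPM) were also highest in plate 1. Plate 39 held the highest Prss29 (50.7 CPM, next 31.8) and Calb2 (92.4 CPM, next 36.5). Tac2 was highest in plate 21, at 70.9 CPM against 42.02 in the next. Fezf2 was highest in plate 3, which has 17 cells, at 520 CPM against 425.8. In the Aire-KO, Pkia was highest in plate 13, at 390 CPM against 290 in the next. Crp (7.22 CPM) and AC122442.1 (28.4 CPM) were lowest in plate 14. Prss29 had its single Aire-KO read in plate 8, which gives 0.0188 CPM.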

How the results depend on the processing

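The number of lower genes, 1662, became 4279 with DESeq2 without a filter and 625 by limma with a correlation within pools, estimated at 0.027. It became 65 against the 2 WT plates of males of 5 and 6 weeks, and 55 of these were among the 1662. The share of higher genes, 1.99% of the 30902 genes, became 3.36% with DESeq2, 2.37% with limma, where higher genes outnumber lower ones, and 0.0227% against those 2 WT plates. With mouse pools, 1 Aire-KO pool against 4 WT pools, edgeR gave 0 lower and 0 higher genes (1264 and 860 at an unadjusted p under 0.05), and Aire had a log2 fold change of -5.66 with an adjusted p of 0.416. Leaving out 1 plate gave 718 to 2131 lower genes and 0.929% to 2.33% higher genes. The lowest of both came without Aire-KO plate 13. Without Aire-KO plates 7, 8 and 14 there were 930, 801 and 1027 lower genes, and without plate 8 there were 1.22% higher genes. The Aire log2 fold change stayed between -5.62 and -5.27. The difference in genes per cell was -413 with protein-coding genes only (exact permutation p = 0.0406), -407 against WT males of 4 weeks (exact permutation p = 0.019), and -440 to -270 over the plates left out, where it passed 0.05 without Aire-KO plate 14 (exact permutation p = 0.0409) or WT plate 3 (exact permutation p = 0.00404). It was -42.5 with at least 5 reads per gene (exact permutation p = 0.676), -92.4 against WT males of 5 and 6 weeks (0.8) and -283.5 over mouse pools (0.6). With long noncoding genes only it was 52.5, higher in the Aire-KO (exact permutation p = 0.028). Of 2552 log2 fold changes of single named genes under these alternatives, 2125 kept their direction and their side of the threshold and 26 changed sign, none of them of a called gene. Against WT males of 5 and 6 weeks, the sign changed for Crp (0.025), Psg17 (0.59), Hspa5 (-0.054), Mcl1 (-0.13), Csn2 (-0.084), H2-Aa (-0.0029) and Dsp (0.091). Over mouse pools it changed for Dsp (0.16) and H2-Aa (-0.029), against WT males of 4 weeks for Cd74 (0.027), Junb (0.055) and Cdx1 (-0.023), over all mTEC plates for Cd74 (0.0031), and with DESeq2 for Cdx1 (-0.012). Over the plates left out, Csn2 ranged from -0.075 to 0.13, Cd74 from -0.098 to 0.035, Junb from -0.25 to 0.017 and Cdx1 from -0.11 to 0.13. No paired analysis was possible because the shared numbers in the labels name cells, and plates of the 2 genotypes share no number. The causes of these changes were not tested. No setting separates genotype from plate.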
